A study of Mus musculus with 4 samples.

Results

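The cells described here are hair follicle keratinocytes of mouse skin that carry Lgr5 or Lhx2 transcripts, 903 of the 27755 cell barcodes that passed the quality limits in 4 single-cell libraries. A barcode was counted as a member when it had at least 300 genes, at most 15% mitochondrial counts, no count of the leukocyte gene Ptprc, at least 10 molecule counts (UMIs) of the basal keratins Krt5 and Krt14 together and at least 2 UMIs of Lgr5 and Lhx2 together. It also had to have under 5 UMIs of the hair cortex keratin Krt35 and under 0.5% of its UMIs from the suprabasal keratins Krt1 and Krt10. The members were thus selected on the measured levels of these genes, which are given below as description only.

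The skin came from the neck and ears of female C57BL/6J mice aged 6 to 8 weeks, with 3 mice pooled into each library and the neck shaved 1 day before treatment. The 4 groups were untreated skin, skin given MC903 (calcipotriol, a vitamin D analog) at 1 nmol in ethanol daily for 9 days, and oxazolone contact dermatitis taken at day 10 or at day 16. The oxazolone mice were sensitised with 3% hapten in acetone and mineral oil on the shaved back and ear and challenged with 1.0% every other day from 7 days later. Each group was 1 pooled library and a vehicle-treated library was not analysed here. Differences between groups therefore carry counting intervals but no test, and the spread between animals is unknown.

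As background, the hair follicle is a downgrowth of the epidermis that alternates between rest and growth. Its bulge holds slow-cycling stem cells marked by Cd34 and Krt15, the hair germ and lower outer root sheath carry the R-spondin receptor Lgr5, and the transcription factor Lhx2 maintains follicle stem cells and their progeny. In a growing follicle the matrix divides, Shh is made on one side of it, and the inner root sheath layers around the new hair express their own keratins, Krt25, Krt27, Krt28 and Krt71. The upper follicle, with the sebaceous gland and its duct marked by Krt79, lies above the bulge.

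As a share of all quality-passing barcodes, members were most frequent at oxazolone day 10. As a share of keratinocytes they were most frequent at day 16 with all UMIs counted, and they were scarce after MC903 by both measures. There were 291 in the untreated library, 549 at oxazolone day 10, 55 at oxazolone day 16 and 8 after MC903. As a share of quality-passing barcodes these were 3.78% (exact 95% interval 3.36 to 4.23, untreated), 6.61% (6.09 to 7.17, day 10), 0.695% (0.524 to 0.904, day 16) and 0.208% (0.0899 to 0.410, MC903). Of all barcodes that met the Krt5 and Krt14 limits and the other keratinocyte limits, members made up 16.1% of 1804 in untreated skin, 66.1% of 830 at day 10, 84.6% of 65 at day 16 and 6.96% of 115 after MC903. Depth differed along with these shares: the median member had 10753 UMIs in the untreated library, 23862 at day 10, 33450 at day 16 and 33706 after MC903. Barcodes of at least 5000 UMIs were also thinned to 5000 and the limits applied again, which left 1399, 521, 55 and 46 keratinocytes. The shares were then 12%, 44.9%, 52.7% and 4.35% in the same order, so the share at either oxazolone time was above the untreated share at equal depth too. The exact 95% intervals of day 10 (40.6 to 49.3) and day 16 (38.8 to 66.3) overlapped, and 2 of the 46 MC903 keratinocytes were members. These intervals cover counting error only, and digestion, dead-cell removal and the area of skin sampled also set such shares.

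**Figure D1:**
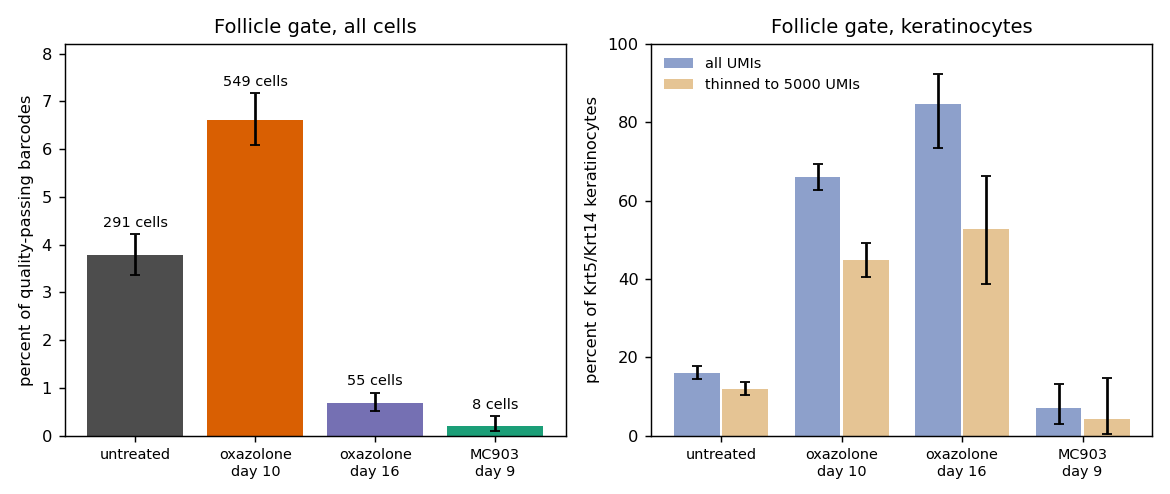
Left, members as percent of all quality-passing barcodes in each library (bars, exact 95% intervals as whiskers, cell numbers above). Right, members as percent of Krt5 and Krt14 keratinocytes with all UMIs and after thinning to 5000 UMIs; the thinned shares are 12% in untreated skin, 44.9% at oxazolone day 10, 52.7% at day 16 and 4.35% after MC903.

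The libraries held 73054242 to 119717836 UMIs in all. Between 5 and 16 barcodes were shared by any pair of libraries, and no member barcode was. Traces of other cells were present in the members. The 6 fibroblast markers summed to 2439, 732, 301 and 2171 CPM (counts per 1e+06 UMIs) in untreated, day 10, day 16 and MC903 members, or 1.41 to 12.1% of the level in fibroblasts of the same library, and 55, 85, 16 and 1 members had at least 3 of the 6 markers. The summed melanocyte markers were also lower in oxazolone members, at 369, 120 and 33.6 CPM in untreated, day 10 and day 16 members. At day 10 most single markers did not follow this sum: 4 of the 6 were at least 2-fold higher than in untreated members and 1 lower (median log2 ratio 1.47). The neutrophil sum was higher in oxazolone members, at 16.9, 181 and 276 CPM, against 249, 27636 and 60224 CPM in leukocytes, and 4 of its 6 genes (S100a9, Retnlg, Csf3r and Cxcr2) were at 0 in untreated members. In these 3 libraries the mural list summed to 229, 161 and 65.0 CPM, T cell to 31.8, 50.4 and 56.1, chondrocyte to 65.9, 23.9 and 3.27, Schwann to 49.2, 23.4 and 8.41, and cornified cell to 518, 218 and 262 CPM with the late marker Flg at 0. Trbc2 alone made up 27.4, 49.1 and 55.6 CPM of the T cell sums, and 4 of the 6 T cell genes were at 0 at day 16. The mural list stood at 45.4 and 16.1 CPM in the untreated and day 10 basal gate described below. In the tests given there, 1 of the 6 mural genes was higher in members than in the basal gate and 1 than in the Krt79 gate. Macrophage, endothelial, dermal papilla and erythroid lists stayed at or below 18.5 CPM. Doublet scoring marked 22, 35, 3 and 1 members, which were kept. The 1 MC903 member with at least 3 fibroblast markers held 161073 of the 384663 UMIs of MC903 members. MC903 levels in members thus weigh this cell most.

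The gate was set beside 4 follicle markers that the rule did not use. Krt17, a keratin of the outer root sheath, stood at 1022 CPM in untreated members, 1588 at day 10, 1220 at day 16 and 408 after MC903. Barx2, a homeobox factor of hair follicles, stood at 274, 411, 272 and 208 CPM in the same order. Both were spread over the libraries without gaps, and their levels in leukocytes of the same libraries were at most 60 CPM for Krt17 and 18.4 CPM for Barx2. Krt15, the bulge and basal keratin, stood at 5061 CPM in untreated members, 1421 at day 10, 774 at day 16 and 640 after MC903. Sema3e, a secreted semaphorin, stood at 608, 268, 240 and 70.2 CPM. These 2 markers were highest in the untreated library, and at day 16 a single cell held 48% of the Sema3e UMIs. In members thinned to 2000 UMIs, Krt15 was seen in 93.5%, 64.8% and 60% of untreated, day 10 and day 16 cells, compared with 5.18%, 2.13% and 0.168% of leukocytes. All 4 markers were thus present in every library, but none is exclusive to follicle cells: after MC903 Sema3e was higher in the basal gate (470 CPM) than in members. In the tests against other keratinocyte gates described below, 0 of the 4 passed against the basal gate (median log2 fold change 1.32), so these markers did not separate members from basal cells at the threshold. Krt15 and Sema3e were higher than in the Krt79 gate, with adjusted p of 0.0775 and 0.35 without the untreated library (edgeR).

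**Figure D2:**
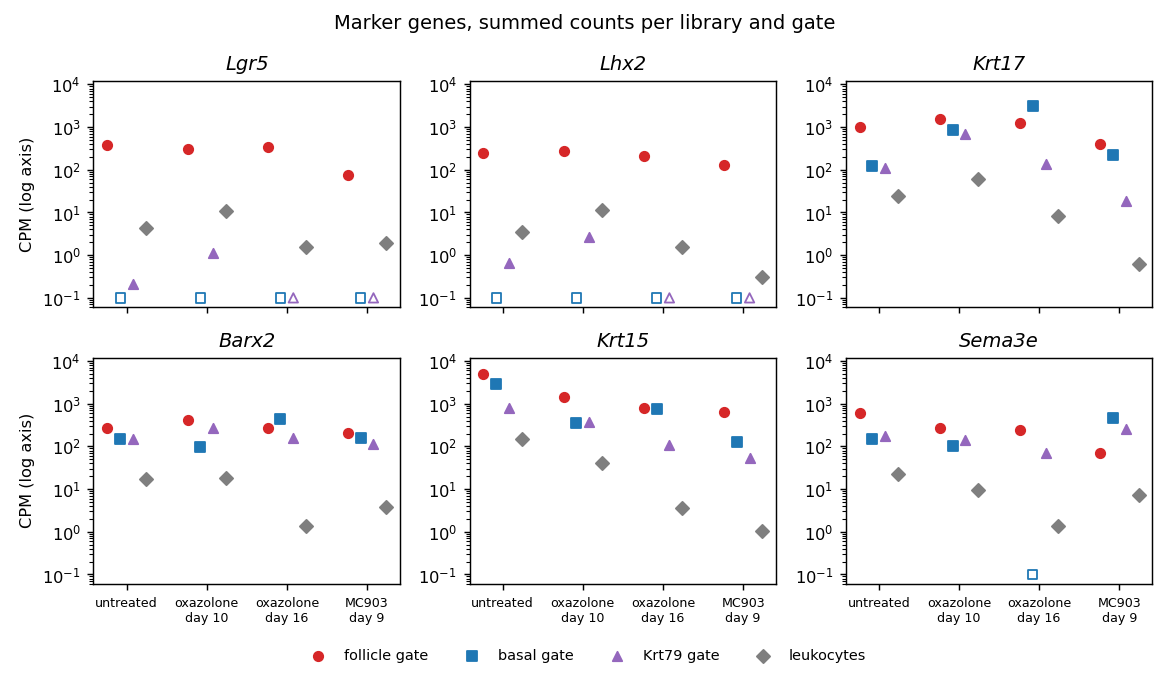
CPM of 6 marker genes (log axis) from counts summed per library, in members (follicle gate), the basal and Krt79 keratinocyte gates and leukocytes; open symbols at the bottom stand for 0 counts. Lgr5 and Lhx2 separate the gates by construction, while Krt17, Barx2, Krt15 and Sema3e, which were not in the rule, are above the leukocyte level in members of all 4 libraries.

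The 2 rule genes were usually seen together. Lgr5 encodes a leucine-rich repeat receptor for R-spondins and lies on chr10:115450311-115587780 of mouse GRCm38, minus strand, and Lhx2 encodes a LIM homeobox factor on chr2:38339281-38369733, plus strand. Lgr5 stood at 389, 309, 337 and 75.4 CPM and Lhx2 at 244, 271, 213 and 127 CPM in untreated, day 10, day 16 and MC903 members. Both genes had a UMI in 172 of the 291 untreated members, 368 of 549 at day 10, 45 of 55 at day 16 and 4 of 8 after MC903. At the edge of the rule, 54 untreated and 51 day 10 members had exactly 2 UMIs of the pair, and 106 and 64 barcodes with 1 UMI fell just outside. In the untreated library Krt15 was 5106 CPM just inside and 3520 CPM just outside, and Krt17 was 863 and 360 CPM. At day 10 the same sums were 424 and 660 CPM for Krt15 and 1268 and 1203 CPM for Krt17.

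The members were next set against 3 other keratinocyte gates to see which genes outside the rule set them apart. The basal gate had the same keratin limits but no UMI of Lgr5, Lhx2 or Krt79 and held 664, 81, 2 and 32 cells. The Krt79 gate had at least 2 UMIs of Krt79 and at most 1 of the rule pair and held 612, 128, 5 and 66 cells, and the Krt35 gate held 24 cells in all. Counts were summed per library and gate, and the 10 sums of at least 10 cells were fitted with edgeR's quasi-likelihood test with library as a block, on 14197 genes and 3 residual degrees of freedom. At an adjusted p under 0.05, 53 genes were higher in members than in the basal gate (0.373% of those tested) and 10 lower (0.0704%). Against the Krt79 gate 1028 genes were higher (7.24%) and 1118 lower (7.87%). Members and basal cells stood side by side only in the untreated and day 10 libraries, and without the untreated library 0 genes passed against the basal gate in either direction and 98 and 79 passed against the Krt79 gate. Without the day 10 library 546 genes were lower than in the Krt79 gate, and without the MC903 library 5 were lower than in the basal gate. All 27 genes named below with a call against the basal gate thus missed the threshold without the untreated library (adjusted p from 0.124 to 0.554, edgeR). Those that missed it against the basal gate without another library, or against the Krt79 gate without any 1 library, are given with their adjusted p.

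Bulge genes were among those higher in members. Tbx1, a T-box factor of follicle stem cells, stood at 79.2, 76.5 and 76.2 CPM in untreated, day 10 and day 16 members and at 13.7, 11.7 and 6.74 CPM in the basal gate of the untreated, day 10 and MC903 libraries. Its members-minus-basal log2 fold change was 2.52 ± 0.17 (SE, adjusted p = 0.0122, edgeR). Tcf7l1, a repressor of Wnt targets in stem cells, was 2.33 ± 0.25 (adjusted p = 0.0261), and Dkk3, a secreted member of the dickkopf family, was 2.54 ± 0.29 (adjusted p = 0.0302). These were the 3 of 16 tested bulge genes that passed against the basal gate, with none lower and a median log2 fold change of 1.14 (median of all genes −0.00). Cd34 was 2.46 ± 0.42 and Krt15 1.20 ± 0.38 against the basal gate, and neither passed (adjusted p = 0.0708 and 0.269, edgeR). Against the Krt79 gate 9 of the 16 bulge genes were higher, Cd34 by 3.28 ± 0.43, Krt15 by 2.17 ± 0.37, Nfatc1 by 1.40 ± 0.31 and Postn by 3.12 ± 0.36 among them, with none lower. Fibroblasts of the untreated library had 475 CPM of Cd34 and 1289 CPM of Postn, against 112 and 446 CPM in members, and 4 of the 6 fibroblast markers (Col1a1, Col1a2, Lum and Pdgfra) were also higher in members than in the Krt79 gate. Their part in these calls was not tested. Without the untreated library Cd34, Krt15, Nfatc1 and Postn had adjusted p of 0.122, 0.0775, 0.396 and 0.0712 (edgeR), and Nfatc1 had 0.0506 without the MC903 library. The hair germ and lower outer root sheath list did not set members apart from the basal gate. Of its 14 tested genes 0 were higher there and 1 (Krt16) lower, with a median of 0.07. Against the Krt79 gate 4 of the 14 were higher and 1 (Krt16) lower, with a median of 2.07.

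The largest differences from the basal gate lay in genes outside the bulge list. Shisa2, an endoplasmic reticulum protein that restrains Wnt and FGF receptors, stood at 98.7, 105 and 104 CPM in untreated, day 10 and day 16 members. In the basal gate it stood at 2.69, 5.35 and 0 CPM in the untreated, day 10 and MC903 libraries, with a log2 fold change of 4.78 ± 0.28 (adjusted p = 0.0122, edgeR). Hmga2, a chromatin protein of growing and embryonic tissues, stood at 69.2, 74.3 and 21.5 CPM in members and at most 3.41 CPM in the basal gate (4.88 ± 0.42). Sox13, a SoxD transcription factor, stood at 25.6, 69.6 and 33.2 CPM in members and at most 3.89 CPM in the basal gate (3.85 ± 0.26). For these 3 genes the member sums lay above the basal sums in the untreated and day 10 libraries, the only libraries with a sum of both gates. The day 16 library had no basal sum and the MC903 library no member sum in the fit. Kcnb2, a voltage-gated potassium channel subunit, had the largest difference from the basal gate among genes that passed, 5.77 ± 0.59, but was seen in only 24, 54 and 16 members of the 3 libraries. Dhrs9, a retinol dehydrogenase, followed with 5.44 ± 0.55, and Nkain3, Tafa1, Synpo2 and Col4a4 (a basement membrane collagen chain) had 4.72, 4.72, 4.33 and 4.23. Ephb1, an ephrin receptor, was 3.55 ± 0.42 higher than in the basal gate and 6.77 ± 0.54 higher than in the Krt79 gate. Against the basal gate, Dhrs9 and Tafa1 had adjusted p of 0.0504 and 0.0555 without the day 10 library, Nkain3 and Ephb1 0.0663 and 0.0539 without the MC903 library, and Tafa1 and Ephb1 0.0537 and 0.0539 without the day 16 library (edgeR).

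A few signalling genes were higher in members than in the basal gate, and most did not pass there. Of 42 tested Wnt pathway genes 5 passed against the basal gate, all higher: the receptors Fzd1 (1.25 ± 0.15) and Fzd2 (2.32 ± 0.29), the secreted inhibitors Sfrp1 (2.42 ± 0.27) and Dkk3, and Tcf7l1. Against the Krt79 gate 15 of 42 were higher and none lower. None of 24 FGF and EGF family genes passed against the basal gate, and 7 were higher and 1 lower than in the Krt79 gate. Of 33 BMP, TGF-beta and activin genes 2 passed against the basal gate, the HLH inhibitor Id4 (3.13 ± 0.37) and the activin subunit Inhbb (1.98 ± 0.28), and 10 were higher than in the Krt79 gate. The hedgehog receptor and target Ptch1 was 1.82 ± 0.23 higher than in the basal gate (adjusted p = 0.0333, edgeR), the 1 of 12 hedgehog genes to pass there. Against the Krt79 gate 8 of 12 hedgehog genes were higher, with a median of 2.07, including the transcription factors Gli1 (4.24 ± 0.45) and Gli2 (4.06 ± 0.37). Without the MC903 library Fzd1, Fzd2, Inhbb and Ptch1 missed the threshold against the basal gate (adjusted p = 0.0637, 0.0674, 0.0761 and 0.0758, edgeR). Without the day 10 library Fzd1, Inhbb and Ptch1 did (0.0978, 0.103 and 0.0534), and without the day 16 library Inhbb (0.0544). Gli1 had 0.0749 against the Krt79 gate without the untreated library.

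Of 24 hemidesmosome and basement membrane genes 16 were higher in members than in the Krt79 gate and none lower, with a median log2 fold change of 2.02. Against the basal gate 2 were higher (Egfl6 and Tnc) and none lower, with a median of 0.61, and the difference between these contrasts was not tested. Itga2, an integrin subunit for collagen and laminin, stood at 80.0, 50.9 and 28.5 CPM in untreated, day 10 and day 16 members and at 1.65 and 4.47 CPM in the Krt79 gate of the untreated and day 10 libraries (4.51 ± 0.46, adjusted p = 0.00395, edgeR). Egfl6, a basement membrane protein of the bulge that binds nerve endings, was higher than in both gates, by 2.99 ± 0.39 and 4.16 ± 0.41. So was Tnc, the matrix glycoprotein tenascin-C, by 3.33 ± 0.41 and 4.17 ± 0.42, although fibroblasts of the day 10 and day 16 libraries had 1852 and 1774 CPM of Tnc and single cells held 31% and 34% of the day 10 and day 16 member UMIs. The part of fibroblast RNA in this difference was not tested. Against the basal gate Egfl6 and Tnc each had an adjusted p of 0.0663 without the MC903 library and Egfl6 0.0555 without the day 10 library, and against the Krt79 gate Egfl6 had 0.0672 without the untreated library (edgeR).

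Immune genes were divided. Against the Krt79 gate 4 of 42 cytokine receptor and signalling genes were higher (Il31ra, Il17rd, Il20ra and Tnfrsf19) and 4 lower (Il13ra2, Ifngr1, Socs1 and Cish), and of 28 cytokine and chemokine genes Cxcl5 and Cxcl14 were higher and Ccl2 lower. None of the 28 passed against the basal gate. Of all tested genes 7.24% were higher and 7.87% lower than in the Krt79 gate. The counts of these 2 lists against that gate were thus near the shares of all genes. Il31ra, a receptor subunit for the itch cytokine IL-31, stood at 112, 32.3 and 39.7 CPM in untreated, day 10 and day 16 members and at 25.7 and 9.73 CPM in the untreated and day 10 basal gate. Its log2 fold change was 1.89 ± 0.26 against the basal gate (adjusted p = 0.0451, edgeR) and 1.82 ± 0.26 against the Krt79 gate, and it was the 1 of 42 cytokine receptor genes to pass against the basal gate. Without the MC903 or the day 16 library it had adjusted p of 0.0853 and 0.0508 against the basal gate, and without the untreated library 0.186 against the Krt79 gate (edgeR). Cxcl14, a chemokine of outer root sheath cells, stood at 493, 409 and 950 CPM in members and at 20.7 and 15.7 CPM in the untreated and day 10 Krt79 gate (4.34 ± 0.40, adjusted p = 0.0033). Against the basal gate it was 1.83 ± 0.36 and did not pass (adjusted p = 0.11). Il13ra2, the decoy receptor for IL-13, was −3.14 ± 0.43 against the Krt79 gate, and Cxcl5 was 3.96 ± 0.74 but −0.39 without the doublet-scored barcodes (adjusted p = 0.889, edgeR). Without the untreated library Il13ra2, Il17rd, Il20ra, Ifngr1, Socs1, Cish, Ccl2 and Cxcl5 missed the threshold against the Krt79 gate (adjusted p from 0.0905 to 0.652, edgeR). Tnfrsf19, Ifngr1 and Cish missed it without the day 10 library (0.0834, 0.0693 and 0.18), and Ifngr1 without the MC903 library (0.0521). No interferon response gene of 24 passed against either gate, and 1 cell cycle gene of 25 was higher and 1 lower than in the Krt79 gate.

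Of the 10 genes lower in members than in the basal gate 5 are described here. None of 14 interfollicular epidermis genes passed against the basal gate, and 1 was higher and 1 lower than in the Krt79 gate. Ahr, the aryl hydrocarbon receptor, stood at 48.2 and 12.1 CPM in untreated and day 10 members and at 170 and 55.0 CPM in the basal gate (−2.13 ± 0.29, adjusted p = 0.0446, edgeR). The antimicrobial peptide Defb1 was −1.98 ± 0.20, the fatty acid ligase Acsbg1 −1.69 ± 0.17, the monocarboxylate transporter Slc16a1 −1.61 ± 0.19 and the wound keratin Krt16 −2.93 ± 0.39. Relative to the Krt79 gate some lipid genes of the sebaceous gland were lower. Scd1, the stearoyl-CoA desaturase, stood at 163, 68.1 and 37.9 CPM in members and at 2833 and 1432 CPM in the untreated and day 10 Krt79 gate (−4.46 ± 0.17, adjusted p = 0.000617, edgeR). Members were lower in both libraries with a sum of each gate. Mgst1, Pparg and Fasn were −3.80 ± 0.26, −4.63 ± 0.64 and −2.71 ± 0.62, so that 4 of 13 upper follicle and sebaceous genes were lower and none higher. Of 26 glycolysis and hypoxia genes 8 were lower and 1 higher than in the Krt79 gate, and 1 (Slc16a1) was lower than in the basal gate. Ahr and Slc16a1 missed the threshold against the basal gate without the MC903 library (adjusted p = 0.0758 and 0.0637, edgeR) and Krt16 without the day 10 library (0.421). Pparg and Fasn missed it against the Krt79 gate without the untreated library (0.0672 and 0.340).

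**Figure D3:**
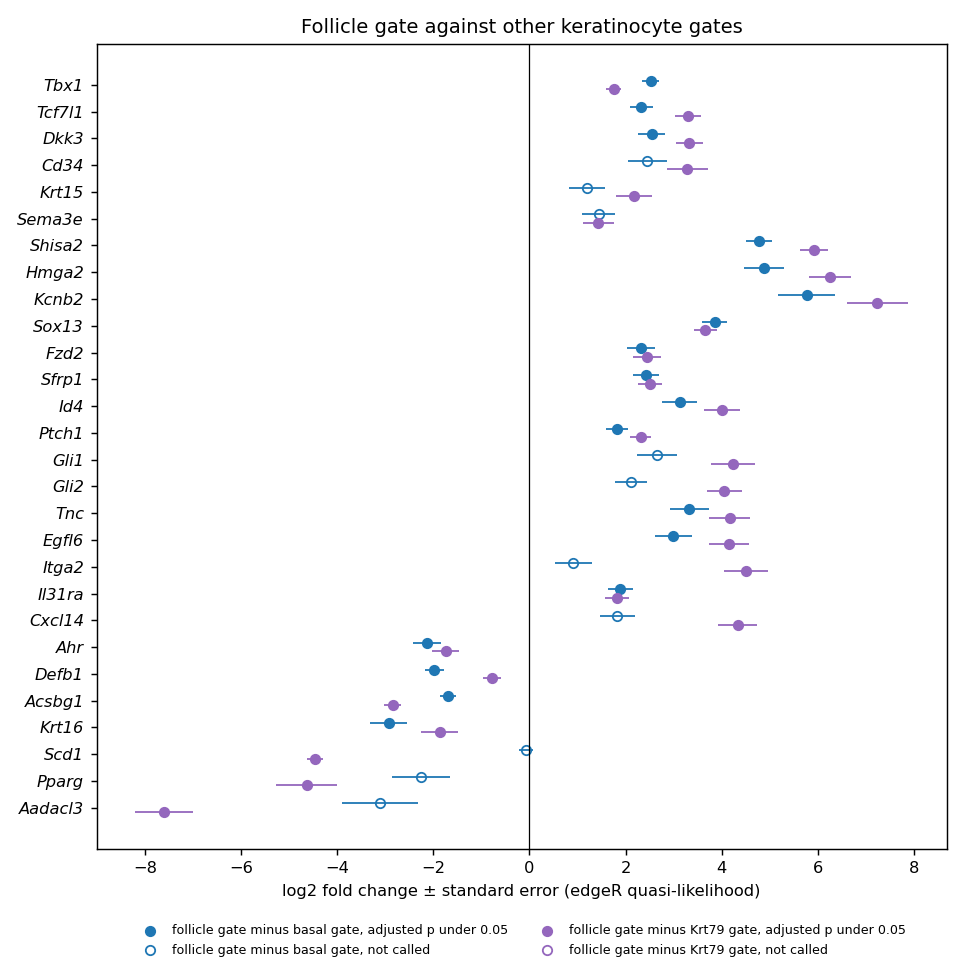
Log2 fold change (points) with standard error (bars) of members minus the basal gate and minus the Krt79 gate, from edgeR's quasi-likelihood fit over sums per library; filled points have an adjusted p under 0.05. Tbx1, Shisa2 and Sox13 lie above 0 in both contrasts, and Scd1 is −4.46 against the Krt79 gate but near 0 against the basal gate.

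Against the Krt35 gate, cells of the forming hair cortex that entered the fit with the day 10 library alone, no gene passed in edgeR in either direction (0%), with 2382 of 14197 at an unadjusted p under 0.05, and DESeq2 called 344 higher and 96 lower.

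Members with only one of the rule genes were then compared with each other. Members with Lgr5 and no Lhx2 numbered 48 in the untreated library and 30 at day 10, and those with Lhx2 and no Lgr5 numbered 71 and 151. At day 10 the shares of cells in division and with hair-forming genes were highest in Lhx2-only cells. After thinning to 2000 UMIs, Mki67, Top2a or Cdk1 was seen in 46.4% of Lhx2-only cells (exact 95% interval 38.2 to 54.6), 31.3% of cells with both genes (26.6 to 36.4) and 10.0% of Lgr5-only cells (2.11 to 26.5). Inner root sheath keratins were seen in 24.5%, 8.45% and 3.33% in the same order, and Shh in 9.27%, 0.545% and 0%. The exact interval of the last share reaches up to 11.6%. Krt15 ran the opposite way, at 34.4%, 75.5% and 86.7%. At day 16, with 7 Lhx2-only and 3 Lgr5-only cells, Shh was seen in 2 of the 45 cells with both genes and in no others. In untreated members the proliferation genes were seen in 12.7% of Lhx2-only, 4.65% of cells with both and 10.4% of Lgr5-only cells. Krt15 was seen there in 85.9% of Lhx2-only and 95.8% of Lgr5-only cells, and inner root sheath keratins in 1.41% and 2.08%. These are cells of 1 library each, so the intervals cover counting error only.

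Across the 2 libraries with enough of both kinds, edgeR called 0 of 8885 genes higher and 0 lower (0%) in Lgr5-only than in Lhx2-only members on 1 residual degree of freedom, with 707 at an unadjusted p under 0.05. DESeq2 called 18 higher and 16 lower. Krt25, an inner root sheath keratin, was at 0 and 3.25 CPM in Lgr5-only and at 16.2 and 78.5 CPM in Lhx2-only members of the untreated and day 10 libraries. Krt28 was at 0 and 4.88 CPM against 16.2 and 88.8 CPM. Both keratins were lower in the Lgr5-only sums of both libraries, with log2 fold changes of −4.77 ± 0.65 and −4.36 ± 0.61 that did not pass (adjusted p = 0.173 for both, edgeR). In the untreated library, 1 of 71 Lhx2-only and 3 of 48 Lgr5-only cells had 2 or more UMIs of inner root sheath keratins. The untreated sums thus rested on few cells, and the cell counts there did not follow them.

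Members of the oxazolone libraries were then set beside untreated members. A gene was measured in a pair of libraries with at least 30 UMIs and was called at a 2-fold CPM ratio, and each ratio has a 95% counting interval. At day 10, 1119 of 13198 measured genes were higher than in untreated members (8.48%) and 1186 lower (8.99%). At day 16, 568 of 10958 were higher (5.18%) and 1511 lower (13.8%), and both comparisons share the untreated library. Between the oxazolone times, 361 of 12833 were higher at day 16 (2.81%) and 1563 lower (12.2%). The median log2 ratio of all genes was 0.08, −0.12 and −0.20 in the 3 comparisons.

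The bulge list had more genes lower than higher in oxazolone members. Of 16 measured bulge genes 7 were lower, none higher and 9 within 2-fold at day 10 (median log2 ratio −0.98), and 9 were lower and 1 higher at day 16 (median −1.20). Krt15 at 5061, 1421 and 774 CPM was 3.56-fold lower at day 10 (log2 ratio −1.83, interval −1.86 to −1.80) and 6.54-fold lower at day 16. Cd34, a sialomucin of bulge cells, stood at 112, 21.7 and 44.9 CPM, 5.17-fold lower at day 10 (−2.37, −2.58 to −2.16) and 2.50-fold lower at day 16. Fgf18, a growth factor of resting follicles, had 76 UMIs in untreated members, 2 at day 10 and 0 at day 16, a log2 ratio of −7.14 (−10.21 to −5.24) at day 10 and at least 13.9-fold lower at day 16. The untreated library was the highest in each of these 3 genes.

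Other genes of the same list were level across the libraries. Tbx1 at 79.2, 76.5 and 76.2 CPM and Dkk3 at 105, 97.4 and 111 CPM had log2 ratios between −0.10 and 0.09 to untreated members, and Shisa2, which is on no list, had 0.09 and 0.08. Nfatc1, a factor that keeps bulge cells quiescent, stood at 127, 64.1 and 22.9 CPM, 5.56-fold lower at day 16. Ccn2, a matricellular protein, was 2.31-fold and 5.64-fold lower, and Gas6, a ligand of TAM receptors, 3.38-fold and 2.36-fold lower. Bmp6, a BMP ligand that restrains bulge cells, was the 1 bulge gene higher at day 16, at 34.3, 12.8 and 70.6 CPM. Its level was thus lowest at day 10 and 5.53-fold higher at day 16 than at day 10. In cells with a UMI of both rule genes 5 bulge genes were lower at day 10 (median −0.68), and without members carrying 3 or more fibroblast markers 8 were, with none higher at day 16.

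Genes of the hair-forming layers were higher in oxazolone members. Of 11 measured inner root sheath genes 7 were higher and 1 lower at day 10 (median 1.48) and 8 were higher and 1 lower at day 16 (median 2.45). Krt28 stood at 4.87, 42.7 and 105 CPM in untreated, day 10 and day 16 members (log2 ratio 3.13, interval 2.48 to 3.87, and 4.43, 3.75 to 5.19). Krt25 stood at 4.10, 33.4 and 53.7 CPM (3.03 and 3.71), and Dlx3, a homeobox factor of differentiating follicle layers, at 5.38, 31.6 and 44.4 CPM (2.55 and 3.04). The untreated library was lowest in all 3 genes, but few cells carried them: Krt25 was seen in 2, 86 and 10 members, and single cells held 94% of its untreated UMIs and 76% of the day 16 UMIs of Krt71. These keratins belong to gene families of similar sequence, and how reads matching several of them were handled is not given in the sources used here. After thinning to 2000 UMIs an inner root sheath keratin was seen in 1.72% of untreated (interval 0.560 to 3.96), 12.6% of day 10 and 20% of day 16 members. In cells with a UMI of both rule genes 5 of the 11 genes were higher at day 10, with a median of 0.61.

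Of the 5 measured hair matrix and cortex genes 3 were higher at each oxazolone time, and 1 was lower at day 16. Shh, the hedgehog ligand, had no UMI in 291 untreated members, 379 UMIs in 36 members at day 10 and 47 UMIs in 5 members at day 16. Against the floor of 3 UMIs in the untreated library, this is at least 34.0-fold more at day 10 and at least 28.6-fold more at day 16. Lef1, a Wnt-responsive factor of hair precursors, stood at 55.6, 257 and 150.5 CPM (log2 ratio 2.21 and 1.44), and Msx2, a homeobox factor of the matrix, at 9.74, 26.0 and 38.8 CPM (1.42 and 1.99). Myb, a factor of dividing progenitors, stood at 2.05, 24.1 and 24.3 CPM, and Cux1, a factor of the inner root sheath, at 77.9, 373 and 595 CPM.

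The upper follicle and sebaceous list went the other way, with 8 of 13 genes lower at day 10 (median −1.26) and 7 of 13 at day 16 (median −1.02) and none higher. Gata6, a factor of the follicle junction and sebaceous duct, stood at 31.8, 3.45 and 0.935 CPM in untreated, day 10 and day 16 members (log2 ratio −3.20, interval −3.71 to −2.72, and −5.09). Cst6, a cysteine protease inhibitor of differentiating follicle cells, stood at 70.5, 10.6 and 1.87 CPM, 6.68-fold and 37.7-fold lower. Both were highest in the untreated library. The list depended on how members were chosen: in cells with a UMI of both rule genes its medians were 0.05 and 0.42, and without members carrying 3 or more fibroblast markers 5 and 4 genes were lower. A Krt79 UMI was present in 33 untreated, 93 day 10 and 4 day 16 members.

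**Figure D4:**
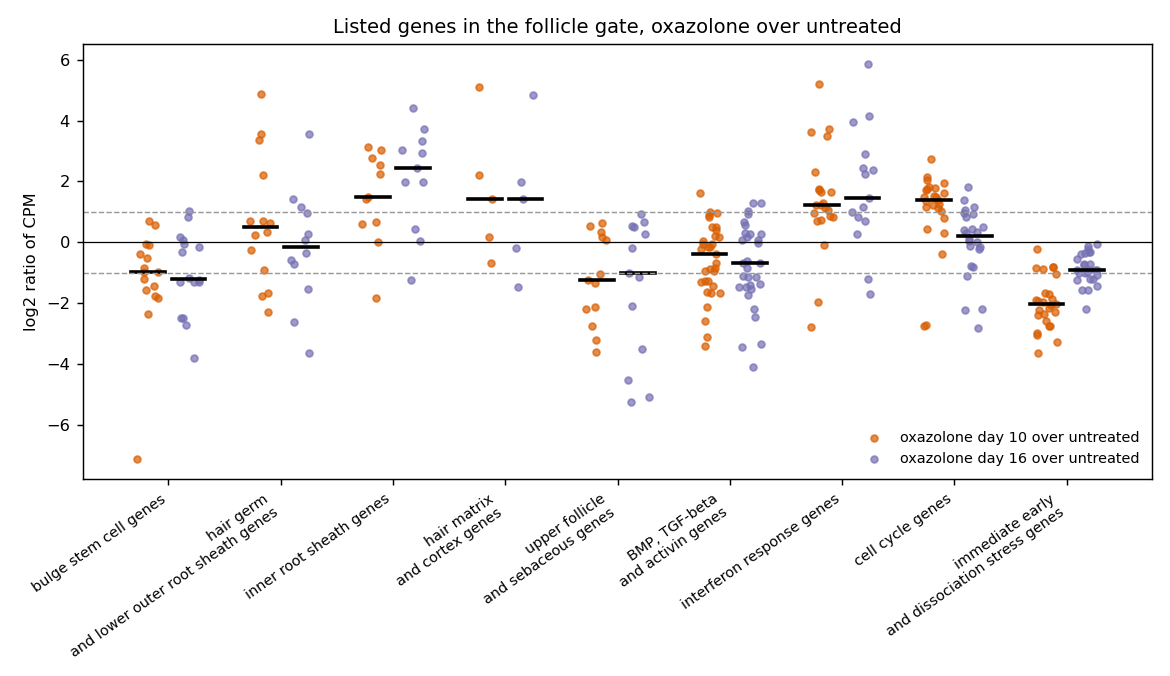
Log2 ratio of CPM in oxazolone members over untreated members for measured genes of 9 lists (1 point a gene, black bars the list medians, dashed lines the 2-fold limits; genes at 0 in one library are drawn at their bound). Both comparisons share the untreated library; the inner root sheath medians are 1.48 and 2.45 and the bulge medians −0.98 and −1.20.

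More members were in division at day 10. Of 25 cell cycle genes 19 were higher than in untreated members and 2 lower (median 1.39), and the lower ones were the inhibitors Cdkn1a and Cdkn1c. Mki67, a marker of cycling cells, stood at 106, 356 and 188 CPM in untreated, day 10 and day 16 members, with a log2 ratio of 1.75 (interval 1.60 to 1.90) at day 10 and 0.82 at day 16. Ccnb1, a mitotic cyclin, stood at 12, 53.7 and 13.1 CPM. Day 10 was the highest library for both. Cdkn1a, the p21 inhibitor, ran opposite at 128, 19.0 and 28.0 CPM, while the inhibitor gene Cdkn2b had 3, 74 and 3 UMIs (log2 ratio 2.73, 1.13 to 5.04, at day 10). After thinning to 2000 UMIs, Mki67, Top2a or Cdk1 was seen in 7.56%, 34.3% and 27.3% of untreated, day 10 and day 16 members. At day 16 only 4 of 24 genes were higher and 4 lower, and without members carrying 3 or more fibroblast markers 1 was higher and 11 lower (median −0.77 in place of 0.21). From day 10 to day 16, 13 of 25 were lower, the kinase Aurka by 15.9-fold and the ubiquitin enzyme Ube2c by 8.99-fold.

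**Figure D5:**
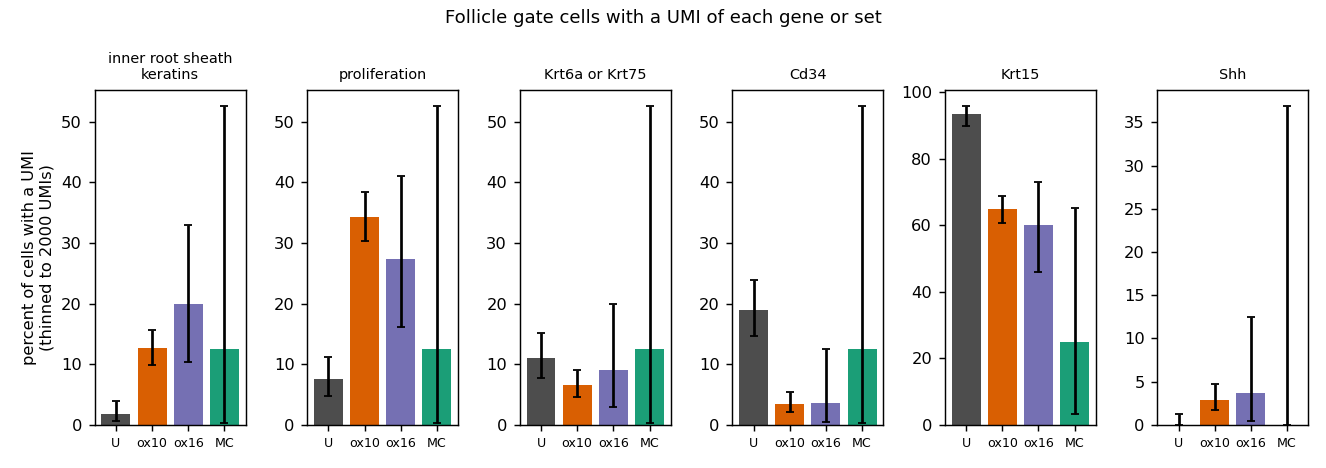
Percent of members with a UMI of each gene or set after thinning every cell to 2000 UMIs (bars, exact 95% intervals as whiskers) in untreated (U), oxazolone day 10 (ox10), oxazolone day 16 (ox16) and MC903 (MC) libraries. Proliferation stands at 7.56%, 34.3% and 27.3% and Krt15 at 93.5%, 64.8% and 60% in the first 3 libraries; the MC903 bars rest on 8 cells.

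Of the hedgehog genes other than the ligand Shh, Cdon, a hedgehog co-receptor, was the 1 lower gene, at 72.0, 13.9 and 11.7 CPM in untreated, day 10 and day 16 members. Ptch1 stood at 88.4, 169 and 66.8 CPM and Gli1 at 26.9, 34.1 and 21.0 CPM, neither past 2-fold against untreated members. Day 10 was thus the highest library for the targets Ptch1 and Gli1.

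Wnt pathway genes were divided, with 6 of 39 higher and 6 lower at day 10 and 8 of 35 higher and 8 lower at day 16. Wnt5a, a ligand of the non-canonical branch, stood at 10.5, 79.4 and 34.6 CPM (log2 ratio 2.92, interval 2.47 to 3.40, and 1.72), the receptor Fzd10 at 3.84, 28.7 and 19.6 CPM, and Porcn, which acylates Wnt ligands, at 7.43, 27.4 and 46.3 CPM. All 3 were lowest in the untreated library. Dkk2, an inhibitor, stood at 33.1, 4.90 and 0.467 CPM, but fibroblasts of the untreated library had 267 CPM of it and 12 untreated members carried it. Sostdc1, an antagonist of Wnt and BMP ligands, stood at 189, 55.3 and 30.4 CPM, and Wif1, a Wnt inhibitor, at 118, 135 and 20.6 CPM, with 919 CPM in untreated fibroblasts.

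BMP, TGF-beta and activin genes were more often lower. Of 33 measured, 11 were lower and 2 higher at day 10 (median −0.38), and of 31 at day 16, 14 were lower and 3 higher (median −0.69). Id1, a direct BMP target, stood at 541, 61.9 and 98.6 CPM in untreated, day 10 and day 16 members (log2 ratio −3.13, interval −3.24 to −3.02, and −2.46), and Id3 at 541, 124 and 162 CPM (−2.13 and −1.74). The BMP antagonist Nog stood at 24.1, 2.28 and 1.40 CPM, 10.6-fold and 17.2-fold lower, and the ligand Bmp2 at 30.5, 9.86 and 2.80 CPM. The ligand Bmp2, the antagonist Nog and the targets Id1 and Id3 were all highest in untreated members. Bmp6, a ligand of this list given above, and Id4 did not follow them and were highest at day 16. Id4 stood at 147, 58.8 and 231 CPM, 3.92-fold higher at day 16 than at day 10. Without members carrying 3 or more fibroblast markers the medians were −0.15 and −0.18.

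Among growth factors, Nrg1, a ligand of ErbB receptors, stood at 28.7, 85.8 and 503 CPM, 17.5-fold higher at day 16 than in untreated members, with 48% of the day 16 UMIs in 1 cell. Hbegf, another EGF family ligand, stood at 62.5, 12.7 and 56.5 CPM, low at day 10 alone. Areg, the ligand amphiregulin, had 10, 219 and 7 UMIs, 5.89-fold higher at day 10. Among axon guidance and nerve contact genes 5 of 37 were higher and 8 lower at day 10. Robo1, a Slit receptor, stood at 57.7, 354 and 467 CPM (log2 ratio 2.62 and 3.02). Ntf3, the neurotrophin that follicle cells make for sensory nerves, stood at 28.2, 7.03 and 0.467 CPM, 4.01-fold lower at day 10. Robo1 was thus lowest and Ntf3 highest in untreated members.

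Members of both oxazolone libraries had higher levels of interferon-induced genes. Of 22 measured interferon response genes 14 were higher and 2 lower at day 10 (median 1.23), and of 15 at day 16, 10 were higher and 2 lower (median 1.46). Isg15, a ubiquitin-like antiviral protein, stood at 1.28, 14.4 and 22.9 CPM (log2 ratio 3.49, interval 2.25 to 5.13, and 4.16, 2.84 to 5.84), in 4, 83 and 15 members. Ifi27l2a stood at 25.6, 127 and 190 CPM, 4.97-fold and 7.42-fold higher. Untreated members were lowest for both. Isg15 was also higher in leukocytes of these libraries, at 19.8, 116 and 294 CPM. The class I antigen presentation genes H2-K1 and B2m stood at 216, 534 and 514 CPM and at 272, 557 and 650 CPM, between 2.05-fold and 2.48-fold higher at either time.

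The highest ratios to untreated members among genes with at least 100 UMIs were those of calgranulins and the chemokine Cxcl2. S100a8, a calgranulin, had 1 UMI in untreated members, 1036 at day 10 and 237 at day 16, a log2 ratio of 8.12 (5.64 to 13.43) at day 10 and 8.76 (6.26 to 14.07) at day 16. Cxcl2, a neutrophil chemokine, had 1, 463 and 266 UMIs (6.96, 4.48 to 12.27, and 8.92, 6.43 to 14.23). S100a9, with 0, 1297 and 270 UMIs, was at least 116-fold higher at day 10. In all, 8 of 16 measured wound keratin and antimicrobial genes were higher and 4 lower at day 10, and 8 of 13 higher and 4 lower at day 16. At day 10 most measured genes of this list were higher in the basal and Krt79 gates too, as given below. One member held 52% of the day 10 UMIs of S100a8 and 50% of those of Cxcl2, and leukocytes of the day 10 library had 10903 CPM of S100a8 against 71.4 CPM in members. S100a8 and S100a9 are themselves on the neutrophil list. Its other 4 genes (Retnlg, Csf3r, Cxcr2 and Il1r2) summed to 16.7, 20 and 39.3 CPM in untreated, day 10 and day 16 members, or 10.9%, 0.554% and 1.31% of the leukocyte level, and the part of neutrophil RNA in the result was not tested. Lcn2, a siderophore-binding protein, stood at 0.256, 15.5 and 53.3 CPM, and leukocytes and fibroblasts of the day 10 library had 350 and 61.6 CPM of it.

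Of 20 cytokine and chemokine genes measured in both oxazolone libraries 13 were higher and 1 lower at day 16 than at day 10 (median 1.23). The 1 lower gene was Cxcl5, with 424 UMIs at day 10 and 5 at day 16, and a single cell held 68% of the day 10 UMIs. Cxcl14 was 2.32-fold higher at day 16 than at day 10, in 48 and 426 members. Against untreated members the list had 6 higher and 7 lower of 19 at day 10, and 9 higher and 5 lower of 18 at day 16. Cxcl9, an interferon-gamma-induced chemokine, had 2, 408 and 38 UMIs in 2, 33 and 4 members (log2 ratio 5.78, 3.92 to 8.83, at day 10), with 92% of the day 16 UMIs in 1 cell.

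Receptors for type 2 cytokines were measured in every library at low to moderate levels. Il4ra, the shared IL-4 and IL-13 receptor chain, stood at 6.15, 12.1 and 16.8 CPM, with log2 ratios of 0.97 (0.35 to 1.65) and 1.45 (0.67 to 2.26). It was seen in 0.344%, 1.64% and 1.82% of members thinned to 2000 UMIs, compared with 5.53%, 23.2% and 19.4% of leukocytes. Il13ra1 stood at 96.9, 86.1 and 93.0 CPM and Osmr, the oncostatin M and IL-31 receptor chain, at 56.6, 65.8 and 60.8 CPM. Il13ra1 and Osmr differed by at most 1.16-fold from untreated members, and their log2 intervals lay between −0.34 and 0.43. Il31ra was 3.48-fold lower at day 10 and 2.83-fold lower at day 16. Of the epithelial alarmins, Tslp had 2, 3 and 1 UMIs and Il33 stood at 6.92, 2.28 and 3.27 CPM. Of 41 cytokine receptor genes 10 were lower and 3 higher at day 10.

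Immediate early genes had the lowest list median at day 10. At day 10, 21 of 26 were lower and none higher (median −2.05), and at day 16, 10 were lower and none higher (median −0.91). Fos stood at 2113, 266 and 1124 CPM in untreated, day 10 and day 16 members, Atf3 at 923, 74.5 and 454 CPM and Zfp36 at 497, 73.4 and 393 CPM. Day 10 was the lowest and untreated the highest library for all 3. These genes are known to respond to tissue digestion. Fos stood at 907, 688 and 463 CPM in leukocytes and at 1274, 348 and 810 CPM in fibroblasts of the same libraries, so fibroblasts shared the low level at day 10. The part of tissue handling in the difference was not tested.

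Other lists had genes on both sides. At day 10, 2 of 24 hemidesmosome and basement membrane genes were higher and 4 lower (median −0.18), with Col17a1, the hemidesmosome collagen that anchors stem cells, at 1242, 415 and 506 CPM in untreated, day 10 and day 16 members. It was 2.99-fold lower at day 10 and 2.46-fold lower at day 16. Of 47 follicle transcription factors 9 were higher and 5 lower at day 10 (median 0.07), and Sox9, a factor of outer root sheath progenitors, stood at 406, 310 and 323 CPM. Of 14 hair germ and lower outer root sheath genes 4 were higher and 3 lower (median 0.49), of 14 interfollicular epidermis genes 4 were higher and 5 lower (median −0.41), and of 25 glycolysis and hypoxia genes 2 were higher and 5 lower. Aqp3, a water and glycerol channel, was the gene of the hair germ list with the largest difference at day 16, at 324, 65.9 and 25.7 CPM, 12.6-fold lower.

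The basal and Krt79 gates allowed the same day 10 comparison in cells outside the rule. In the basal gate 7.96% of 12148 measured genes were higher than in untreated cells and 11.7% lower, and in the Krt79 gate 6.4% of 12538 were higher and 7.98% lower. Bulge genes were lower in 7 of 15 in the basal gate (median −0.88) and in 4 of 15, with 1 higher, in the Krt79 gate (median 0.23). Inner root sheath genes were higher in 8 of 10 in the basal gate (median 3.03) and in 0 of 7 in the Krt79 gate. The day 10 basal gate held hair-forming cells of its own, with Lef1 at 576 CPM, Krt28 at 80.3 CPM and Shh at 26.3 CPM, compared with 8.58, 0.620 and 0 CPM in the untreated basal gate. Immediate early genes were lower in 20 of 26 and 14 of 26, cell cycle genes higher in 8 of 24 and 11 of 24, and interferon genes higher in 9 of 16 and 13 of 17. Wound keratin and antimicrobial genes were higher in 9 of 14 and 12 of 18, and 5 were lower in each gate. Their medians were 3.75 and 3.59, against 0.94 in members. Upper follicle and sebaceous genes were lower in 8 of 12 and 6 of 13, with 1 higher in each gate (medians −1.43 and −0.98). The neutrophil list summed to 99.8 and 120 CPM in the day 10 basal and Krt79 gates, against 181 CPM in members. The differences between the gates in these ratios were not tested, since each gate has 1 library a group.

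Among the genes with the lowest ratios were some that fibroblasts make. Mfap4, a microfibril protein, stood at 77.6, 1.66 and 0.935 CPM in members and at 381 CPM in untreated fibroblasts, and Lama2, a laminin chain of mesenchyme, at 116, 15.8 and 0.467 CPM and at 1157 CPM in those fibroblasts. Mfap4 was seen in 17 untreated members and Lama2 in 27. Spink5, Krt32 and Krt7 were also among the lowest and were near 0 in untreated fibroblasts. Spink5, a protease inhibitor of differentiating epidermis, had 230, 4 and 14 UMIs (log2 ratio −7.74, −9.63 to −6.36, at day 10), in 21, 3 and 4 members. Krt32, a hair cuticle keratin, stood at 26.9, 0.828 and 0.935 CPM in 42, 12 and 2 members, 32.5-fold lower at day 10. Krt7, a simple-type keratin, had 108, 11 and 0 UMIs, 36.5-fold lower at day 10 and at least 19.7-fold lower at day 16.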

How the data were processed

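Raw UMI counts per gene and barcode (10x Genomics 3′ v3.1, 32285 genes) were deposited by the authors, 1 matrix per library. Cell Ranger 8.0 and the mouse build mm10 appear in the submitters' processing notes, while per the file headers Cell Ranger 7.2.0 made the untreated and oxazolone day 10 matrices and 8.0.0 the MC903 and day 16 matrices, so the version differs between some of the libraries compared and its part in their differences was not tested. How multi-mapped reads were treated is not given in the sources used here. Libraries were labelled by treatment, with 1 pooled library per group and no replicate numbers shared between groups.

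Barcodes were filtered and gated on the deposited counts as stated above, with python 3.11.15 and scanpy 1.11.5. The members, gene lists and markers were chosen with earlier results of these data known. Reference gates were leukocytes (Ptprc at least 2 UMIs), endothelial cells (Pecam1 and Cdh5 together at least 2) and fibroblasts (Col1a1 and Col1a2 together at least 10, the last chosen after seeing the data), and each was read beside the members as CPM of summed counts. Scrublet scores marked 0.8% of barcodes per 1000 as doublets, which were kept. Sums of at least 10 cells per library and gate were tested with edgeR 4.0.16 (quasi-likelihood, TMM, filterByExpr, library as block, Benjamini-Hochberg adjustment over all genes tested), leaving out the genes of the gates, and DESeq2 1.42.0 was an alternative. The edgeR step was tested on simulated data. Between libraries, CPM ratios of summed counts carry exact conditional binomial 95% intervals where both libraries had at least 20 members and the gene at least 30 UMIs in the pair, with 3 UMIs used as the floor in place of 0. Shares carry exact Clopper-Pearson 95% intervals. Intervals and floors cover counting error only. For detection, cells were thinned to 2000 UMIs, and shallower cells were left out.

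Genes were named by rule: the markers, the 12 highest and 8 lowest per gate contrast past the threshold with at least 30 CPM, at most 4 per list and comparison with the largest differences, the 10 highest and 10 lowest ratios with at least 100 UMIs, and a short set followed in every library. Of these, the genes that carry a finding are described, and 1 is not reported here. Cxcr2, Flg, Fzd1, Fzd2, Inhbb, Fasn, Top2a, Cdk1, Tnfrsf19, Ifngr1, Socs1, Cish and Ccl2 fall outside the rule or complete a count or set and were chosen after their values were seen. Alternatives covered the gate limits, doublets, depth, scaling, the filter on low counts, the weight of cells, Krt79 and fibroblast marker carriers, the block, the tool and each library left out. Members with a UMI of each of Lgr5 and Lhx2 were added as an alternative after seeing the data.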

Additional observations from a re-analysis of the deposited data

How the results depend on the processing

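No paired analysis was possible because each group is 1 library and the labels give no replicate numbers shared by groups. The fit without the library block gave 10 genes higher and 0 lower than in the basal gate and 498 and 660 against the Krt79 gate, and 23 of 27 genes named against the basal gate and 13 of 26 against the Krt79 gate then missed the threshold, each in the same direction.

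Requiring a UMI of each of Lgr5 and Lhx2 left 172 untreated and 4 MC903 members, and thinning to 5000 UMIs left 168, 234, 29 and 2 members in untreated, day 10, day 16 and MC903 libraries. Genes higher and lower than in the basal gate numbered 172 and 84 in DESeq2, 406 and 198 with no filter on low counts, 87 and 37 for members with 3 or more UMIs of the pair, 159 and 74 in cells thinned to 5000 UMIs and 125 and 43 without doublet-scored barcodes, and 19 were lower with at least 10 UMIs per sum. Thinning left 716 lower than in the Krt79 gate. Against the Krt35 gate DESeq2 gave 344 and 96, no filter 753 and 171, at least 10 UMIs per sum 36 and 6, 3 or more UMIs of the pair 14 and 4, and thinning 34 and 6, where edgeR had 0. Between Lgr5-only and Lhx2-only members DESeq2 gave 18 and 16 and no filter 187 and 206. Over the fits without each library in turn, genes higher and lower ranged from 0 to 74 and 0 to 13 (basal) and from 98 to 1027 and 79 to 1120 (Krt79). The Krt35 gate entered these fits with the day 10 library alone. For Lgr5-only against Lhx2-only members, the day 16 and MC903 libraries had under 10 cells of each kind and were not in the fit. Leaving them out repeated the same fit and says nothing on its stability. This contrast could not be fitted without the untreated or the day 10 library, nor the Krt35 contrast without day 10.

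The number of genes past 2-fold followed the UMI minimum. At day 10 over untreated, 1814 were lower at 10 UMIs, 700 higher and 726 lower at 100 UMIs, and 688 lower after thinning. At day 16 over untreated, 883 were higher and 2335 lower at 10 UMIs, 297 and 732 at 100 UMIs, and 357 higher after thinning. At day 16 over day 10, 785 were higher at 10 UMIs, 195 higher and 844 lower at 100 UMIs, and 544 higher with median-ratio scaling.

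The upper follicle and sebaceous genes had a median log2 ratio of 0.0465 at day 10 and 0.42 at day 16 over untreated in members with a UMI of each rule gene, an alternative chosen after seeing the data. The cytokine and chemokine median at day 16 over untreated was −0.0627 at 100 UMIs in the pair, and Krt71 at day 16 over day 10 was −0.79 without members carrying 3 or more fibroblast markers. Cxcl5 against the Krt79 gate was −0.39 without doublet-scored barcodes. The cause was not tested. Of the other list medians under the alternatives, 629 stayed on their side of a 2-fold ratio and 57 crossed it. Of the counts of cells or genes, 125 stayed within 1.5-fold and 55 did not. Some that stayed came from alternatives that used the same sums as the main fit, such as at least 20 cells per sum.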

Other observations

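The 8 MC903 members held 384663 UMIs, under the 20 cells needed for a ratio, and their levels are given as values of 8 cells. A single cell held 161073 of these UMIs, so a gene spread evenly by depth would have a large part of its UMIs there. This cell had Lgr5 but no Lhx2. It was the 1 MC903 member with a Krt79 UMI and the 1 with 3 or more fibroblast markers. Cyp24a1, the vitamin D-induced 24-hydroxylase, had 8 UMIs in 5 of the 8 cells (20.8 CPM), and stood at 493 CPM in the basal gate and 86.9 CPM in the Krt79 gate of the same library. Leukocytes and fibroblasts of that library had 37.5 and 60.2 CPM of Cyp24a1. The member value was lower than both, but it rests on 8 UMIs and does not place members below leukocytes. In untreated and day 16 members it had no UMI, and at day 10 it had 10 UMIs in 5 of 549 members. The vitamin D receptor gene Vdr stood at 225, 364, 402 and 172 CPM in untreated, day 10, day 16 and MC903 members. Among the genes described above, Cux1 stood at 879 CPM, Robo1 at 653 CPM and Cxcl14 at 866 CPM in the MC903 members, and 1 cell held 51% of the Cux1, 58% of the Robo1 and 43% of the Cxcl14 UMIs. Krt28 stood at 286 CPM, with 91% of its UMIs in 1 cell. A single cell also held 96% of the Scd1 and all 80 Pparg UMIs of these members.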
